A study of Mus musculus with 6 samples.

Results

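The 10 genes described here, Angptl4, Plin2, Plin3, Hilpda, Pnpla2, G0s2, Abhd5, Lipe, Mgll and Cidec, encode proteins that coat lipid droplets or control the release of fatty acids from stored and circulating fat. They were taken by name: every probe that is not a control and whose gene name on the array is 1 of these symbols or an older alias. This gave 17 probes of 55681 and 10 gene names of 34499. Expression was measured in mProx24, a proximal tubular cell line from mouse kidney (strain C57B6 per the labels), on 1-colour Agilent arrays with 60-base probes, 1 array for each of 6 conditions. Because a single line was used with 1 array per condition, no value has a replicate error, no test was made, and precision is limited by how few arrays there are.

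The control, high glucose and high FFAs (free fatty acids) conditions were at 20% oxygen, and hypoxia, triple stimuli and triple stimuli with rapamycin at 1%. FFAs were given as palmitate at 150 µM with 0.15% bovine serum albumin for 9 hours, and hypoxia lasted 12 hours before that step. Triple stimuli joined high glucose, palmitate and hypoxia, and the last condition added rapamycin, which inhibits the growth kinase complex mTORC1, at 0.4 µg/ml for 12 hours ahead of palmitate. Conditions without palmitate are marked PBS in the labels, and the sources used here do not give the glucose concentrations. The labels of a pair of arrays conflict. Array A is high glucose by its scanner file and high FFAs by the column of the value table that holds the same values, and array B is the reverse. Neither was relabelled, and nothing is stated on which stimulus each of them received.

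Between 40.3% and 43.8% of the 59305 spots that are not controls were well above background, 0 were saturated, and repeat spots of a probe had a median SD of 0.0606 to 0.0728 on the log2 scale. The arrays shared 1 slide, and the upper row of the slide held the 20% oxygen arrays and the lower row the 1% arrays, so that oxygen and position on the slide cannot be told apart. In the first 64 rows of spots 9.36% of measured genes were at least 2-fold higher in hypoxia, against 4.22% in the next 64. The probes of Angptl4, Plin2 and Hilpda lie at rows 145 (Angptl4), 355 (Plin2) and 109 and 115 (Hilpda), outside the first 64, and the Lipe probe lies at row 3. Of 20 proximal tubule markers, 8 were above background on all 6 arrays, Lrp2, Cubn, Aqp1 and Pax8 among them, and 11 on none, with the transporters Slc34a1, Slc5a2 and Slc22a6 and the factor Hnf4a among these. Of 11 adipocyte markers on the array, 9 were above background on no array, including Adipoq, Plin1, Fabp4 and Lpl. Only Pparg was above background on all 6, and the summed level of the list ran from 4.67 to 7.55 in units of an array's 75th percentile. Of 9 macrophage markers, 4 were above background throughout (Csf1r, Itgam, Cd14 and Cd68), and Ptprc, Adgre1 and Lyz2 were among those above it on no array. The summed level of the list was 26.4 in control, 24.8 on array A and 27.0 in triple stimuli. It was highest in hypoxia, 36.6, where Csf1r had a level of 4.47 beside 3.77 in control. Of the markers of fibroblasts, distal nephron and endothelium, 0 of 7, 1 of 8 and 1 of 6 were above background on all arrays. Cd68, which encodes a lysosomal protein, was 1.92 higher (log2) on array A and 1.39 higher in triple stimuli. The Cd68 probe lies at row 16, in the first 64, and the part of Cd68 in the results below was not tested.

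Cells store surplus fatty acids as triglyceride in lipid droplets, which carry a coat of perilipins. Adipose triglyceride lipase, the product of Pnpla2, removes the first fatty acid with its coactivator ABHD5 and is inhibited by G0S2 and HILPDA. Hormone-sensitive lipase (Lipe) and monoglyceride lipase (Mgll) then complete the breakdown. ANGPTL4 acts outside the cell as an inhibitor of lipoprotein lipase, which frees fatty acids from circulating lipoproteins. Plin2 and Angptl4 are textbook targets of the fatty acid sensing PPAR receptors and Hilpda of the hypoxia inducible factor HIF-1, and droplets in tubular cells are a known feature of the diabetic kidney.

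The first 30 bases of each 60-base probe show what was measured for the 3 genes that differed most, 5′ to 3′ as the files give them. Hilpda has a pair of probes that overlap by 46 bases, so they are not independent; the capitals mark the stretch of the overlap that both lines show.

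Angptl4: atggtgctgttgtaggtgctgtggatgcac
Plin2: ctggccagatgaccccttttgctgtattga
Hilpda, first probe: tgtttcagacctctGTCCTAAAGGACTCTT
Hilpda, second probe: GTCCTAAAGGACTCTTttggacctaagtat

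On build mm9, as the files give positions, these probes lie at chr17:33911880-33911939 for Angptl4, chr4:86302847-86302906 for Plin2, and chr6:29225127-29225186 and chr6:29225141-29225200 for Hilpda. No annotation of that build was used here, so exon and untranslated region are not given.

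Promoters were read from a RefSeq table (build GRCm38.p6) that holds windows from 250 bases before to 50 bases after a gene's start. It gave 13 windows for 9 of the 10 genes, and Angptl4 was not matched. The windows were searched on both strands for ACGTG and GCGTG, the core forms of the HIF response element, and for the direct repeat of AGGTCA with 1 base of any kind between the copies, the form PPAR receptors bind. The stretch from 130 bases before to 20 bases after the start is printed for Hilpda and Plin2, which differed between arrays, and for Plin3, Pnpla2 and Abhd5, which did not differ by 2-fold. Hilpda has a pair of windows with different starts, and the one with more matches is printed. Capitals mark ACGTG or GCGTG on either strand.

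Hilpda, chr6:29272496-29272645, plus strand: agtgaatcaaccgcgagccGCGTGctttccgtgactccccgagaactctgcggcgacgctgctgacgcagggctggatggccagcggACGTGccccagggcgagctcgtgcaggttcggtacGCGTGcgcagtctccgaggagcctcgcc
Plin2, chr4:86670040-86670189, minus strand: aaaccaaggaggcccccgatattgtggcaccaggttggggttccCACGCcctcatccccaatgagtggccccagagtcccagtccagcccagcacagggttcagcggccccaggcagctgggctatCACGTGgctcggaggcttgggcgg
Plin3, chr17:56290492-56290641, minus strand: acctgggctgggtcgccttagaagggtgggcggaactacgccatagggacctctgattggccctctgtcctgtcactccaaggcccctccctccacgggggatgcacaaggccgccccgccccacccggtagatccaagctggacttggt
Pnpla2, chr7:141455058-141455207, plus strand: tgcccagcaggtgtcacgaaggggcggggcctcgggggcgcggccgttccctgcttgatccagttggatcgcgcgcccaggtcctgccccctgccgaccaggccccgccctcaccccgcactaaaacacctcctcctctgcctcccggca
Abhd5, chr9:122351486-122351635, plus strand: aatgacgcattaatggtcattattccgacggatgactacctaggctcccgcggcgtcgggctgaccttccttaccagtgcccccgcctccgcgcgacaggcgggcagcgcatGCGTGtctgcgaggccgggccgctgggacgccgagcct

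The Hilpda stretch holds 3 matches, beginning 111, 43 and 8 bases before its start. The other Hilpda window holds 1, at 28 to 32 bases after its own start. The Plin2 stretch holds a GCGTG on the reverse strand and, across the start, CACGTG, which reads ACGTG on both strands. The Plin3 and Pnpla2 windows hold neither form, and the Abhd5 window holds a GCGTG 18 to 14 bases before the start, though Abhd5 was under 2-fold in all comparisons. At least 1 match was found in 7 of the 9 genes and 10 of the 13 windows, also in genes that were below background here (G0s2, Mgll and Cidec), and in 43.8% of all 32851 windows of the table, with ACGTG in 19.6% and GCGTG in 32.4%. The direct repeat was found in 0 of the 13 windows and in 0.0396% of all windows. With so rare a form 0 was the likely outcome, and the windows do not reach further from the start or cover Angptl4. This search therefore cannot show whether these genes have a site for PPAR receptors. A match is a run of letters in the window and not a bound site.

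Of the 10 genes, 6 were well above background on all 6 arrays (Angptl4, Plin2, Plin3, Hilpda, Pnpla2 and Abhd5), 1 on some (Lipe) and 3 on none (Cidec, G0s2 and Mgll). For comparison, 14978 of all gene names were above background on all 6. Below, a level is the log2 signal of a gene's brightest probe minus the log2 75th percentile of its array, and the error is the scanner software's own estimate for the spot, brought to the log2 scale. That error was 0.14 to 0.16 for each level of the brightest probes of the 6 genes. For Plin2 and Plin3 it was 0.1443 on every array, so for these it was a fixed share of the signal. It is not a measured spread and holds no variation between cultures or hybridizations. Gaps called within or beyond the error below are therefore not set against such variation. A difference of at least 1 on the log2 scale, 2-fold, is called higher or lower. Levels are compared only within a gene, since probes differ in brightness for the same amount of RNA.

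**Figure D1:**
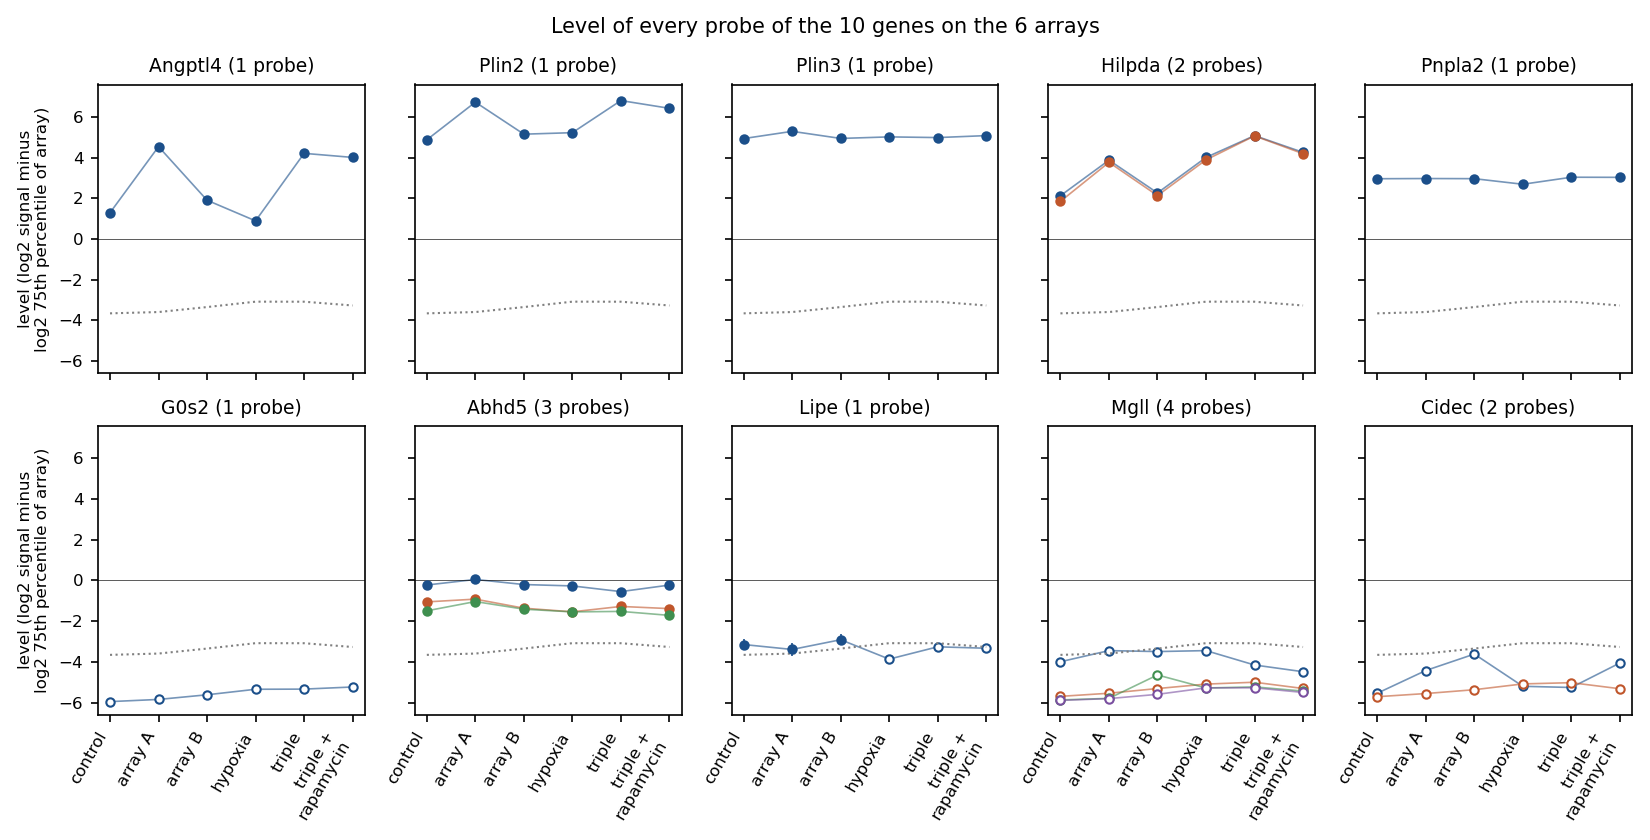
Log2 level (y axis, log2 signal minus the log2 75th percentile of the array) of every probe of the 10 genes on the 6 arrays (x axis), with a colour and a joining line for each probe, filled points well above background, open points not, vertical bars the scanner software's error and the dotted line the lowest level well above background on each array. Angptl4, Plin2 and Hilpda move over 1.93 to 3.65 log2 units, while Plin3, Pnpla2 and the brightest Abhd5 probe stay within 0.35 to 0.60.

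Angptl4, Plin2 and Hilpda carried all differences of 2-fold or more among the 10 genes in the 6 comparisons, and 0 members were lower in any of them. Angptl4 and Plin2 were high on array A and under the triple stimuli with or without rapamycin, and low on the control, array B and hypoxia arrays. Hilpda was high on array A, under the triple stimuli with or without rapamycin and also in hypoxia alone, and low on the control array and array B. The lipase Pnpla2, its coactivator Abhd5 and the coat gene Plin3 differed by less than 2-fold in all 6 comparisons.

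Among the coat genes, Plin2, which encodes the perilipin found on droplets of most cell types, had a level of 4.87 in control, 6.72 on array A, 5.15 on array B, 5.22 under hypoxia, 6.80 in triple stimuli and 6.42 with rapamycin added. The levels formed a high set of 3 arrays and a low set of 3, and the gap between the sets (1.20, from triple stimuli with rapamycin to hypoxia) was larger than any gap within them. Triple stimuli and array A were within the error of each other (gap 0.08, error 0.20), as were hypoxia and array B (gap 0.07). Plin2 was 3.61-fold higher on array A than in control (log2 difference 1.85, error 0.20), 3.80-fold higher in triple stimuli than in control (1.93) and 2.98-fold higher in triple stimuli than in hypoxia (1.58). Array B and hypoxia were 0.28 and 0.35 above control, under the 2-fold line. With rapamycin Plin2 was 0.38 below triple stimuli, also under 2-fold, and still 2.92-fold above control (1.55).

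Plin3, a perilipin that moves between the cytosol and droplets, had levels of 4.93 in control, 5.29 on array A, 4.94 on array B, 5.01 under hypoxia, 4.98 in triple stimuli and 5.08 with rapamycin. It was highest on array A, and the other 5 arrays lay in a run in which each neighbour was within the error of the next. Its largest difference from control was 0.36 on array A, a difference reached or passed by 13.7% of measured genes there. Cidec, which promotes droplet growth and fusion, was well above background on no array, with levels of its brighter probe from -5.54 in control to -3.62 on array B and scanner errors of 0.40 to 1.45, so that no fold is given. The coat genes therefore differed among themselves, since Plin2 was at least 2-fold higher in 3 of the 6 comparisons and Plin3 in 0.

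Pnpla2, the gene of adipose triglyceride lipase (probe at chr7:148645928-148645987), had levels of 2.96 in control, 2.97 on array A, 2.96 on array B, 2.69 under hypoxia, 3.03 in triple stimuli and 3.03 with rapamycin. The arrays other than hypoxia were each within the error of their neighbour, and hypoxia was the lowest, 0.27 below control with an error of 0.20. In triple stimuli Pnpla2 was 0.35 above hypoxia and 0.07 above control, under 2-fold in both.

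Abhd5, the gene of the coactivator of that lipase, has 3 probes on chromosome 9. By the brightest (chr9:122288857-122288916) its levels were -0.22 in control, 0.05 on array A, -0.20 on array B, -0.27 under hypoxia, -0.55 in triple stimuli and -0.23 with rapamycin. Array A was highest and triple stimuli lowest, 0.32 below control with an error of 0.22. The other probes gave differences of -0.22 and -0.03 for triple stimuli against control, the same sign, but 0.26 and 0.02 against hypoxia where the brightest gave -0.28. With rapamycin the brightest probe was 0.32 above triple stimuli and the others were 0.11 and 0.20 below, so the probes do not give 1 direction for either of these. On array A the 3 probes were 0.27, 0.14 and 0.46 above control.

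Among the inhibitors of the lipase, Hilpda, whose protein binds it at the droplet, had levels of 2.12 in control, 3.87 on array A, 2.26 on array B, 4.0 under hypoxia, 5.08 in triple stimuli and 4.25 with rapamycin. Array B and control were low and within the error of each other (gap 0.14, error 0.20). Array A and hypoxia were intermediate and also within the error of each other (gap 0.14), and triple stimuli stood above every other array by at least 0.82. Hilpda was 3.36-fold higher on array A than in control (log2 difference 1.75, error 0.20), 3.68-fold higher in hypoxia (1.88) and 7.74-fold higher in triple stimuli (2.95). In triple stimuli it was also 2.10-fold above hypoxia alone (1.07) and 2.31-fold above array A (1.21). With rapamycin it was 0.82 below triple stimuli, under 2-fold, a difference that 2.84% of measured genes reached or passed on the low side, and it stood 0.25 above hypoxia. The second probe gave levels of 1.85, 3.76, 2.13, 3.89, 5.06 and 4.19 on the arrays in the same order, with differences from control of 1.92 on array A, 2.04 in hypoxia and 3.21 in triple stimuli and the same calls in all 6 comparisons. G0s2, the other inhibitor, was above background on no array (levels -5.95 to -5.23).

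The lipases of the later steps were at or below the limit of detection. Lipe was above background on the control array (level -3.15), array A (-3.39) and array B (-2.91) and not on the 3 arrays at 1% oxygen (-3.86, -3.26 and -3.33), where the lowest level called well above background was -3.08, -3.08 and -3.27. Its errors were 0.25 to 0.54, and its differences from control were -0.24 on array A (error 0.41) and 0.24 on array B (error 0.38), each smaller than the error. Against control no difference could be resolved in hypoxia or in triple stimuli, where Lipe counts as 0, and with rapamycin the bound was -0.12 with an error of 0.43. Another probe for the same gene, listed under a transcript identifier and so outside the 17, was above background on no array. Mgll had 4 probes, none above background on any array, with levels of the brightest from -4.48 with rapamycin to -3.44 in hypoxia.

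Angptl4, the secreted inhibitor of lipoprotein lipase, had levels of 1.29 in control, 4.53 on array A, 1.90 on array B, 0.89 under hypoxia, 4.20 in triple stimuli and 4.0 with rapamycin. In linear signal these were 886, 8065, 1285, 556, 5673 and 5443. The arrays again formed a high set of 3 and a low set of 3, separated by 2.10 log2 units, and hypoxia was the lowest, 0.40 below control with an error of 0.21. Angptl4 was 9.50-fold higher on array A than in control (3.25, error 0.20), which placed it 4th of 17704 measured genes. It was 7.56-fold higher in triple stimuli than in control (2.92) and 9.96-fold higher than in hypoxia alone (3.32). Array B was 0.61 above control (1.53-fold, rank 272 of 17395 measured genes), under the 2-fold line. With rapamycin it was 0.20 below triple stimuli, within the error of 0.20, and 6.58-fold above control.

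**Figure D2:**
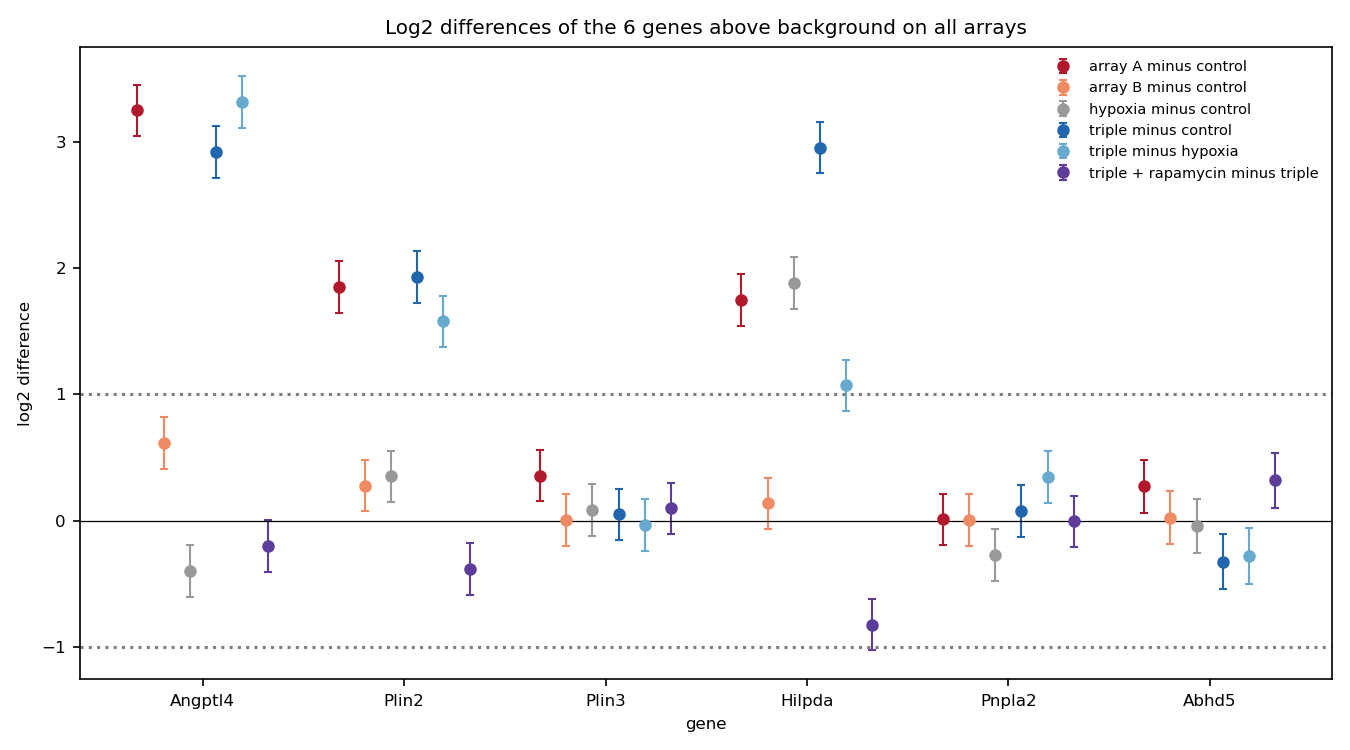
Log2 difference (y axis) of the 6 genes above background on all arrays (x axis) in the 6 comparisons, 1 point for each comparison, with bars for the combined scanner error and dotted lines at 1 and -1, the 2-fold lines. Angptl4 and Plin2 pass the upper line for array A and for triple stimuli against control and against hypoxia, Hilpda passes it for hypoxia as well, and no point passes the lower line.

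The counts stand against the share of all genes past the same fold. The members were chosen with earlier results of these data known, so the counts are not an independent test. On array A 3 of the 7 measured members were at least 2-fold higher and 0 lower, against 1.55% of 17704 measured genes higher and 0.909% lower. On array B 0 of 7 were higher and 0 lower, against 0.31% and 0.282% of 17395. In hypoxia 1 of 7 was higher (Hilpda) and 0 lower, against 4.41% and 0.469% of 17688. In triple stimuli 3 of 7 were higher and 0 lower, against 5.06% and 1.72% of 17682. Triple stimuli had 3 of 6 higher than hypoxia alone and 0 lower, against 3.5% and 3.03% of 16957. With rapamycin 0 of 6 were higher and 0 lower than in triple stimuli, against 1.95% and 2.15% of 17140.

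The median member differed from control by 0.36 on array A, 0.14 on array B, 0.00 under hypoxia (the unresolved Lipe) and 0.07 in triple stimuli, while the median over all measured genes lay between -0.01 and 0.02 in these comparisons. Against hypoxia the median member in triple stimuli was 0.71 higher, and with rapamycin against triple stimuli it was -0.10, with -0.03 for all genes in both. The comparisons against control share 1 array, so they do not repeat each other independently. Array A set directly against array B, which leaves control out, gave Angptl4 at 2.63, Plin2 at 1.57 and Hilpda at 1.61.

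**Figure D3:**
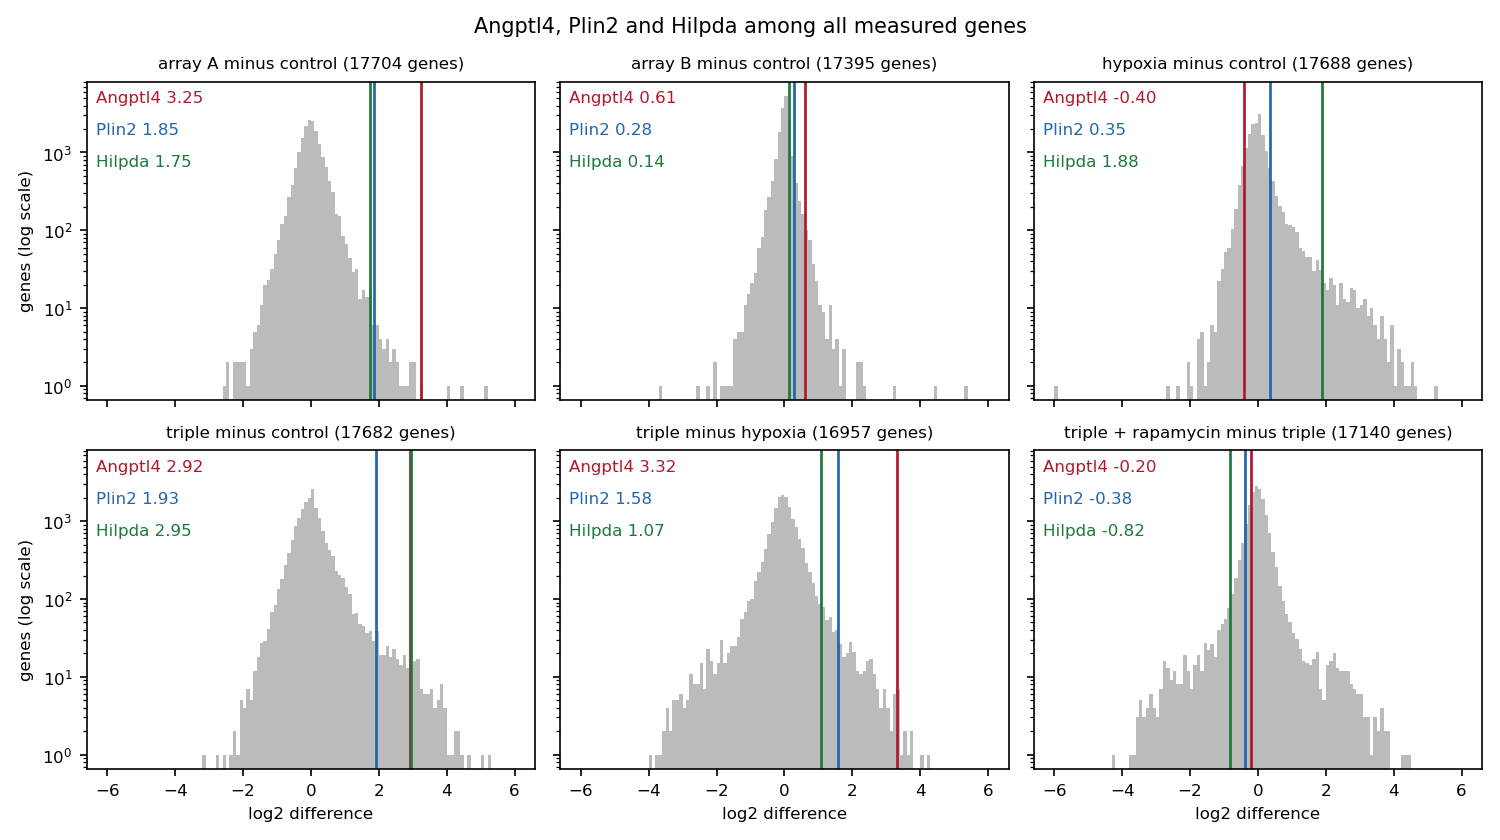
Number of measured genes (y axis, log scale) by log2 difference (x axis) in each of the 6 comparisons, with vertical lines and printed values for Angptl4, Plin2 and Hilpda. On array A all 3 lie in the upper tail, in hypoxia Hilpda alone does (1.88), and with rapamycin the 3 lines lie between -0.82 and -0.20.

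The triple stimuli difference was set beside the sum of the differences of array A, array B and hypoxia from control. The sum is of log2 values and so stands for the product of the folds. Less than this sum need not be less than the sum of the increases in linear signal, which was not computed. The Hilpda folds, for example, were 3.36, 1.10 and 3.68, beside 7.74 in triple stimuli. For Hilpda the single differences summed to 3.76 and the triple stimuli difference was 2.95, which is 0.81 less with an error of 0.41. Angptl4 summed to 3.46 against 2.92 and Plin2 to 2.48 against 1.93, each 0.55 less with an error of 0.41. Abhd5 was 0.58 less (error 0.42), Plin3 0.40 less and Pnpla2 0.33 more, the last of these within the error of 0.41, as was Plin3. The Abhd5 value is that of its brightest probe. The second probe gave 0.14, -0.31 and -0.49 on array A, on array B and in hypoxia. In triple stimuli it gave -0.22, above their sum. The third gave 0.46, 0.08 and -0.05 beside -0.03, below their sum, so the Abhd5 probes do not give 1 direction. Over the 14978 genes above background on all arrays the median of this quantity was -0.02, with quartiles of -0.20 and 0.17, and 7.16% were at -0.5 or lower. The control array is subtracted 3 times in the sum and 1 time in the difference it is set beside, so its own error enters this quantity.

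The genes that neighbour these in the pathways were taken from 5 lists. Of 29 other droplet coat and assembly genes on the array, 20 were above background throughout, including Bscl2 (seipin), Acsl3 and Rab18, and 6 on none, including the perilipins Plin1 and Plin5 and the fusion gene Cidea. In this list 1 of 22 measured genes was at least 2-fold higher on array A, the perilipin Plin4, at 2.23 (4.70-fold), with a list median of 0.17. The control level of Plin4, -3.20, was near the lowest called well above background on that array, -3.65, and Plin4 was above background on 4 of the 6 arrays. None of 22 passed on array B or in hypoxia, and 1 of 23 did in triple stimuli, Mettl7b, as a lower bound of 1.34, and 0 did with normexp or with detection on both arrays. None of 22 passed for triple stimuli against hypoxia or for rapamycin against triple stimuli, and 0 were lower in any comparison, though 1 passed for rapamycin with quantile normalization or with centring within bands of spot rows. Plin4 was 0.77 above control in triple stimuli.

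Of 32 other intracellular lipases and their regulators, 18 were above background throughout. Of the 20 to 23 measured in each comparison 0 were at least 2-fold different from control on the arrays A, B, hypoxia and triple stimuli, and 0 in triple stimuli against hypoxia. With rapamycin against triple stimuli 1 of 21 was higher, the phosphodiesterase gene Pde3b, as a lower bound of 1.5, and 0 were with normexp, with detection on both arrays or with the mean of a gene's probes. The list median was -0.15 on array A and -0.20 in triple stimuli against control.

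In the lipoprotein lipase system Lpl itself, the enzyme that ANGPTL4 inhibits, was above background on no array. Angptl8, whose product takes part in the control of the lipase, was 1.47 higher on array A (2.76-fold), 1.54 higher in triple stimuli than in control and 1.02 higher than in hypoxia, with its probe in the first 64 rows of spots (row 47). Vldlr, a receptor for triglyceride-rich lipoproteins, was 2.24 higher in hypoxia (4.73-fold) and 2.02 in triple stimuli. In all, 1 of 9 measured genes of the list was higher on array A (2 past 2-fold with the mean of a gene's probes), 0 of 9 on array B and 3 of 10 in triple stimuli, the third being Pcsk6 (2.39 as a lower bound). Pcsk6 was above background on 1 array, at row 3, and was also the second of the 2 genes higher than in hypoxia (1.82) and the 1 lower with rapamycin (-2.0), again as bounds. The number past 2-fold against hypoxia, 2 here, was 1 under quantile normalization, under the other percentile base and with detection required on both arrays, and 0 with normexp background correction. The 1 lower with rapamycin was 0 with detection on both arrays.

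Of the PPAR receptors and fatty acid responsive targets, Ppara, Ppard and Pparg were above background on all arrays and under 2-fold in every comparison. On array A 5 of 23 measured genes were higher and 0 lower, with a list median of 0.32: Acot2 (3.01) and Acot1 (2.01), which encode acyl-CoA thioesterases, Pdk4 (1.58), a kinase that inhibits pyruvate dehydrogenase, Cpt1a (1.19), the carnitine palmitoyltransferase of fatty acid import into mitochondria, and Fabp3 (1.10), a fatty acid binding protein. The control level of Fabp3, -3.43, was near the lowest called well above background on that array, -3.65, and Fabp3 was above background on 5 of the 6 arrays. With normexp 3 genes of the list were past 2-fold on array A. On array B 1 of 22 was higher, Txnip (1.57), which encodes a thioredoxin binding protein. Txnip was put in this list by choice, and whether it responded to fatty acid in these cells was not tested. On array A, where the 5 genes above were higher, Txnip was 0.22 below control. Counts of this list that include Txnip are not read as a response to fatty acid. In hypoxia 1 of 23 was higher, Cpt1b (2.43 as a lower bound), whose probe lies at spot row 53, in the first 64, and was above background on that 1 array. In the same comparison 3 were lower: Txnip (-1.65), with Cpt1a (-1.17) and Acot1 (-1.63) as bounds. These 4 genes past 2-fold became 2 with normexp and 1 with detection on both arrays. In triple stimuli against control 3 of 22 were higher, Acot2 (2.85), Txnip (2.55) and Pdk4 (2.08). Against hypoxia 5 of 23 were higher, Txnip the most (4.20), and 1 lower, and these 6 became 3 with either of those alternatives. With rapamycin 1 of 21 was higher, Acot1 (1.19), and 0 with normexp.

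The targets of hypoxia inducible factors outside lipid handling give the setting for Hilpda. In hypoxia 20 of 23 measured targets were at least 2-fold higher, with a list median of 1.93 beside 1.88 for Hilpda, and Ak4, an adenylate kinase gene, was the highest of those measured on both arrays (4.59). In triple stimuli 17 of 22 were higher (median 1.86). For triple stimuli against hypoxia the list median was -0.27 with 0 of 23 higher and 1 lower, Pfkfb3 (-1.25; 0 with the mean of a gene's probes), while Hilpda was at 1.07. On array A 3 of 22 were higher, Ndrg1 (1.35), Ak4 (1.29) and Vegfa (1.11), with a median of 0.20, where Hilpda was at 1.75. With rapamycin against triple stimuli the median was -0.42, with 0 of 23 higher and 1 lower, Ero1a (-1.11), and Hilpda was at -0.82. The number past 2-fold was 0 with normexp and 3 with the mean of a gene's probes.

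**Figure D4:**
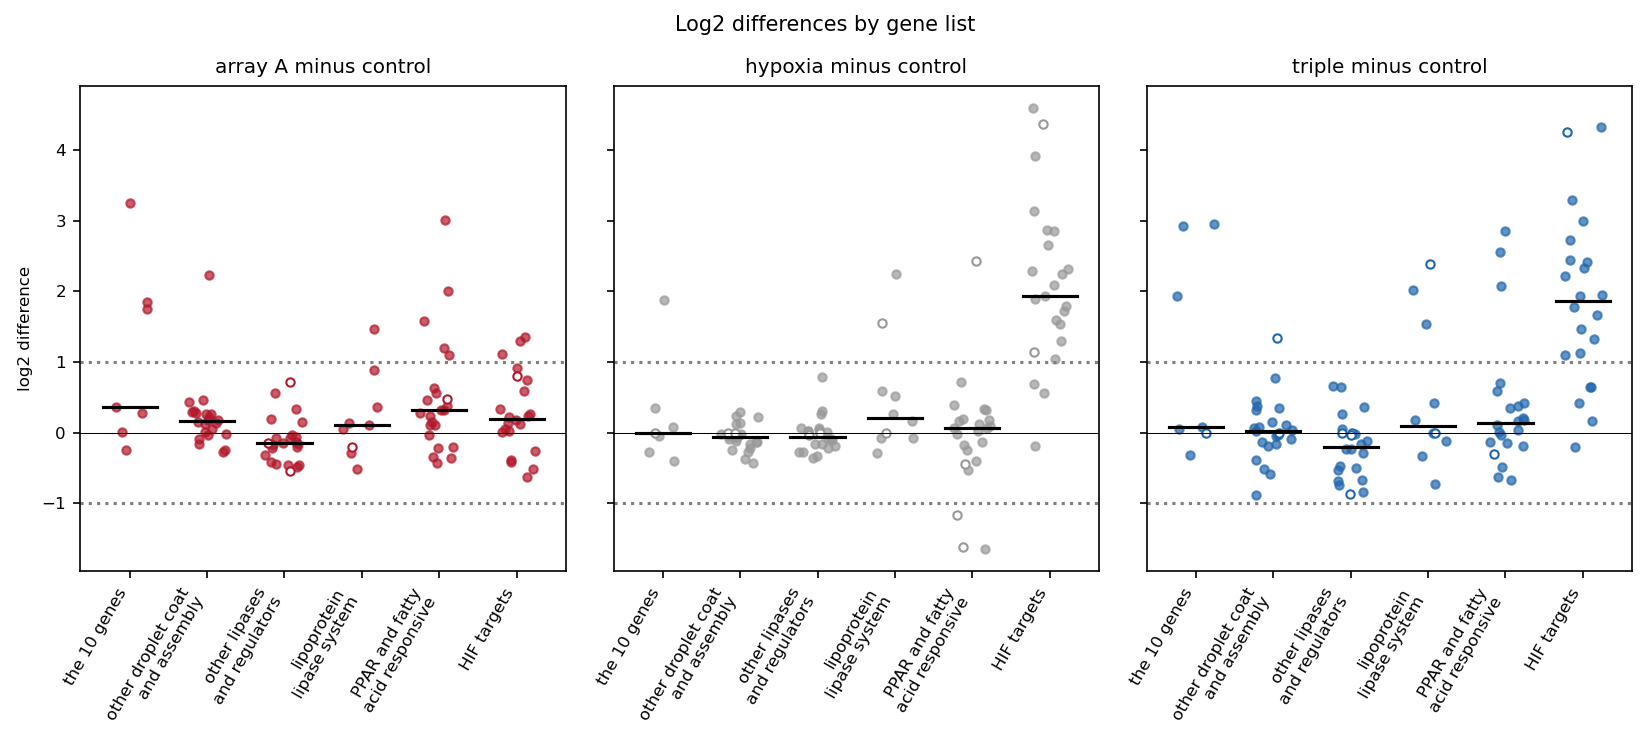
Log2 difference from control (y axis) of each measured gene of the 10 genes and the 5 lists (x axis) on array A, in hypoxia and in triple stimuli, with open points for bounds, a bar at each median and dotted lines at 1 and -1. In hypoxia the HIF targets centre on 1.93 and the other lists near 0, and on array A the fatty acid responsive list has a median of 0.32 with Acot2 at 3.01.

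For each of the 3 genes that differed, the nearest patterns were sought among 10616 of the other genes above background on all 6 arrays, those whose name is a symbol in the RefSeq table and no clone, accession or predicted model, by the root mean square difference of log2 levels after each gene's mean over the 6 arrays was subtracted. For Plin2 the nearest were Herpud1 and Slc6a9 (0.13 each) and Slc3a2 (0.17), beside a range of 1.93 in Plin2 itself. For Hilpda they were Adm2 (0.23), Stbd1 (0.24) and Aldh1l2 (0.25), beside a range of 2.95. Among these, Angptl4 had no gene as close: the nearest were Acot2 (0.44), Hmga2 (0.46) and Atf3 (0.51), beside a range of 3.65. Acot2, for example, was 3.01 above control on array A and 2.85 in triple stimuli as Angptl4 was 3.25 and 2.92, but 0.06 below control on array B where Angptl4 was 0.61 above.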

How the data were processed

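Per the submitters' processing notes and the file headers, the authors read each Cy3 array with Agilent Feature Extraction 10.7.3.1, and the deposited scanner files hold a background-corrected intensity per spot (gProcessedSignal) with no scaling between arrays. The deposited value table holds a ratio, that intensity divided by an array constant; its scale was read from the values. Matching both gave the conflict over arrays A and B.

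Levels are log2 intensity minus the log2 75th percentile of an array's non-control spots, averaged over spots of a probe. Of 55681 probes, 323 with an outlier mark were left out, 0 of them among the 17. A gene is its brightest probe. A comparison takes genes well above background on at least 1 array, and a dim side was raised to the lowest level well above background on that array, so bounds are lower limits of a difference. No model was fitted, and the difference step was tested on simulated data. Python 3.11.15, R 4.3.3 and limma 3.58.1 (normexp, offset 50, and quantile alternatives) were used.

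The members and lists were chosen with earlier results of these data known. Named in each list were at most the 3 largest differences of 2-fold or more measured on both arrays, plus the nearest 3 patterns to a member; other names (Bscl2, Acsl3, Rab18, Plin1, Plin5, Cidea, Mettl7b, Pde3b, Lpl, Pcsk6, Cpt1a, Cpt1b, Fabp3 and the receptors), values of a list gene in further comparisons and marker genes were added after values were seen. A result of the lipoprotein lipase list is not reported here. The 8 alternatives are quantile normalization, another percentile base, normexp, the value table, detection on both arrays, the mean of probes, outlier spots kept, and centring within bands of 64 spot rows.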

Additional observations from a re-analysis of the deposited data

How the results depend on the processing

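Under the 8 alternatives all 48 counts of members past 2-fold and all 318 member differences kept their side of the 2-fold line, though part of this was fixed in advance. For example, Angptl4 on array A ranged from 3.06 to 3.28, Plin2 from 1.78 to 1.89, and Hilpda in triple stimuli against hypoxia, the call nearest the line, from 1.01 to 1.21. The Abhd5 difference for triple stimuli against hypoxia ran from -0.30 to 0.00. Keeping outlier spots could not change member levels, since 0 of the 17 probes carry such a mark. Requiring detection on both arrays leaves the 6 genes above background on all arrays as they were. The mean of probes does the same for genes with 1 probe, and the value table differs from the scanner intensity only by an array constant. Of 48 totals over the 5 lists, 44 stayed within 1.5 times: triple stimuli against hypoxia had 9 genes, 4 with normexp and 5 with detection required on both arrays, and rapamycin against triple stimuli had 4, 1 and 2. Of 240 counts of single lists 24 moved by more. The share of all genes past 2-fold moved by more than 1.5 times in 23 of 96 cases. With normexp the shares higher and lower were 0.791% and 0.203% on array A, 0.0805% and 0.0345% on array B, 2.76% and 0.107% in hypoxia, 2.86% and 0.645% in triple stimuli, 1.83% and 1.28% against hypoxia, and 0.869% and 0.963% with rapamycin. With detection on both arrays they were 0.585% lower on array A, 0.118% and 0.0808% on array B, 2.5% and 0.286% in hypoxia, 3.11% higher in triple stimuli, 1.99% and 1.35% against hypoxia, and 0.376% and 0.571% with rapamycin. With quantile normalization 0.763% were lower in hypoxia. Requiring detection on both arrays tests fewer genes by construction, and the cause of the other moves was not tested. With 1 array per condition no array could be left out of a group. No paired analysis was possible because each condition has 1 array and the labels number no replicates. Signal over background limits Lipe, whose differences were smaller than their errors, and Mgll, G0s2 and Cidec, for which no difference is given.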
